A study of Mus musculus with 6 samples.

Results

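Voltage-gated sodium channels, potassium channels and HCN channels set how a neuron fires. Sodium channels carry the upstroke of the action potential, voltage-gated and calcium-activated potassium channels end it and shape the pause that follows, and inward rectifier, tandem-pore and HCN channels set the resting potential and the drive between spikes. Purkinje cells of the cerebellum fire spontaneously at a high rate, and the resurgent sodium current, the fast Kv3 current and the calcium-activated BK and SK currents are known parts of that firing. The 39 genes described here encode pore-forming and accessory subunits of these channels, named as a list of channel genes and taken from the 24421 gene symbols of the count files. They fall into 15 families by channel type.

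The STIM1 knockout (KO) group and the wild type (WT) group held 3 libraries each, described by the submitters as biological replicates, from mice of 1 year. Whether a library came from 1 mouse or from pooled mice is not stated. STIM1 is the calcium sensor of the endoplasmic reticulum that opens store-operated channels in the plasma membrane. RNA came from cerebellar tissue microdissected as Purkinje neuron layer plus molecular layer, so that glia, interneurons and the axons and dendrites of other neurons are included. The labels give no strain, no description of the deleted allele and no account of which cells lack Stim1. In bulk tissue of this kind, fewer cells of a type and less RNA per cell cannot be told apart.

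The libraries were shallow over genes. Gene counts summed to 659213 to 764839 in KO and 645994 to 705168 in WT, and a tested gene had a median of 24 to 31 counts per library. Levels are given as CPM, counts scaled to the TMM-adjusted library size. The limit that 0 counts sets is 3 counts per library, which is 3.92 to 4.64 CPM and covers counting error only. Stim1 itself had 4, 3 and 2 counts in KO replicates 1 to 3, against 7, 21 and 3 in WT replicates 1 to 3. Of 20 Purkinje cell markers 0 were at 0 in all libraries, and their summed level was 3149 to 4125 CPM in KO and 4093 to 4777 CPM in WT. Markers of other cells were present too, with astrocyte and Bergmann glia markers at 2428 to 3158 CPM in KO and 2983 to 3776 CPM in WT, granule cell markers at 533 to 666 CPM in KO and 530 to 625 CPM in WT, and molecular layer interneuron markers at 377 to 489 CPM in KO and 428 to 465 CPM in WT. Markers of oligodendrocytes summed to 140.0 to 171.5 CPM in KO and 149.9 to 181.7 CPM in WT, and of microglia to 168 to 191 CPM in KO and 163 to 205 CPM in WT, and 4 of 5 erythrocyte markers and 1 of 19 astrocyte markers (Npy2r) were at 0 in all libraries. Of the tested markers 16 of 19 Purkinje cell and 14 of 16 astrocyte and Bergmann glia genes had a log2 fold change of KO over WT below 0, against 5 of 11 granule cell and 6 of 7 interneuron genes, and 0 passed the adjusted test. Y-linked counts were found in KO replicate 3 and WT replicate 3 and in no other library. Neither the labels nor the processing notes give the strandedness of the libraries or the strand setting of the counting. Several pairs of genes read from opposite strands bear on it. Xist, the RNA made from the inactive X chromosome, had 100, 108 and 4 counts in KO replicates 1 to 3 and 139, 79 and 10 in WT replicates 1 to 3. Tsix, its opposite-strand gene, had 3265, 3019 and 1 counts in KO and 3053, 2987 and 2 in WT, high in the 4 libraries without Y-linked counts. Most counts at that locus thus stood under the opposite-strand gene. The same order held in 6 of 8 pairs of a channel subunit and an opposite-strand gene, given below. Reads that fell in no gene were 98.8% of the uniquely aligned reads in both genotypes. Which strand was counted was not tested. A count under a channel gene's name may therefore hold RNA of the other strand, and every channel value below carries that limit.

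No channel subunit passed the test of KO against WT. With edgeR's quasi-likelihood test and a Benjamini-Hochberg adjustment over all 5320 tested genes, 0 of the 20 subunits that passed the filter on low counts had an adjusted p under 0.05, and over all tested genes the share was 0%. DESeq2, limma-voom and the edgeR exact test also called 0 subunits. At an unadjusted p under 0.05 there was 1 subunit, Scn1a, or 5% of the 20, against 4.62% of all tested genes (3.05% lower and 1.58% higher in KO). The log2 fold changes of KO over WT (log2 change below) lay between -0.66 and 0.50, with standard errors (SE) of 0.16 to 0.44 and adjusted p-values of 0.987 to 0.999. They were below 0 for 14 subunits and above 0 for 6, and 49.8% of all tested genes were below 0. Their median was -0.067, beside 0.0017 over all tested genes, and without WT replicate 1 it was 0.00019. For 14 of the 20 the 95% interval of the log2 fold change lay within -1 and 1, so that a doubling or a halving is outside it. The other 19 subunits were too low to be tested, and 12 of them had at most 3 counts in every library.

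**Figure D1:**
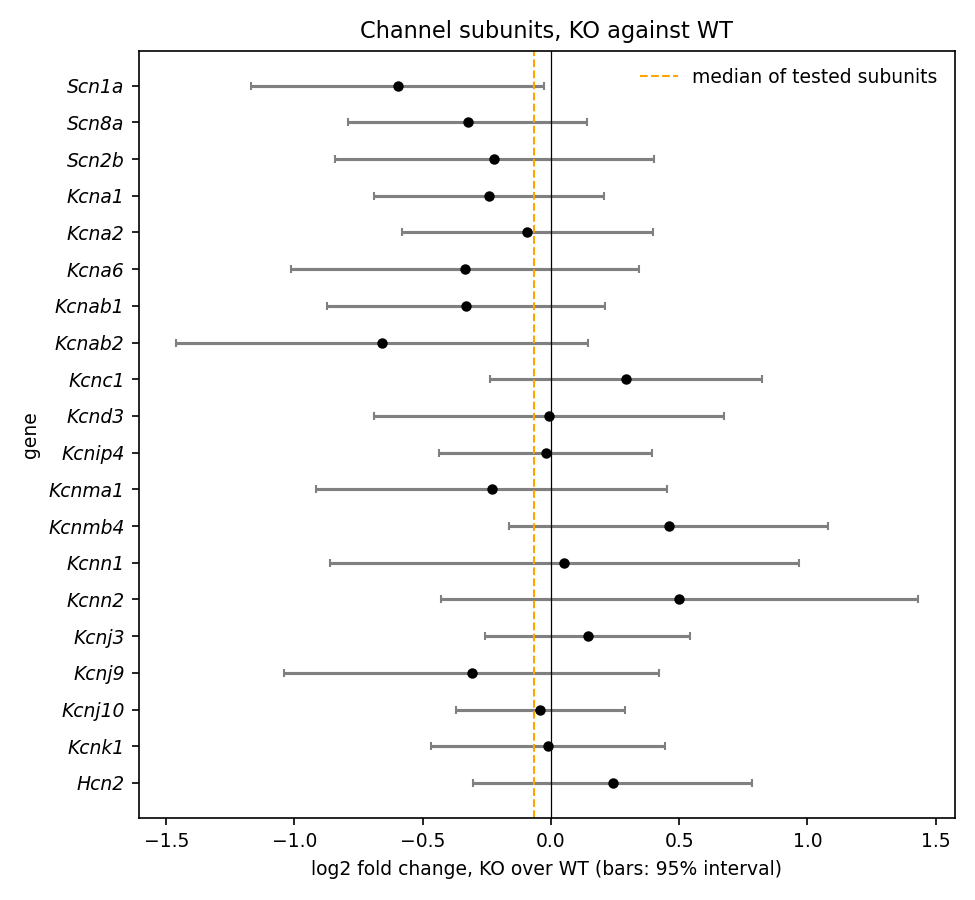
Log2 fold change of KO over WT (x axis) for the 20 tested channel subunits (y axis, by family), as points with 95% intervals from the edgeR fit, and a dashed line at their median. The points run from -0.66 (Kcnab2) to 0.50 (Kcnn2), and the interval of Scn1a alone leaves out 0, before any adjustment for the number of genes.

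The KO and WT libraries did not overlap for 4 of the 20 tested subunits, in CPM scaled by TMM, and all 4 were lower in KO. They are Scn1a, Scn8a, Kcna1 and Kcnab2. That is 20% of the tested subunits, against 6.13% of all tested genes lower in KO without overlap, 4.61% higher in KO without overlap and 10.7% in either direction. Among the 19 untested subunits the libraries did not overlap for 2, Scn4b and Kcnip1, again lower in KO, where 2.7% of all genes below the filter were lower in KO without overlap, a share that includes genes at 0 in every library. None of the 4 passed the adjusted test, and Scn4b and Kcnip1 were below its filter.

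**Figure D2:**
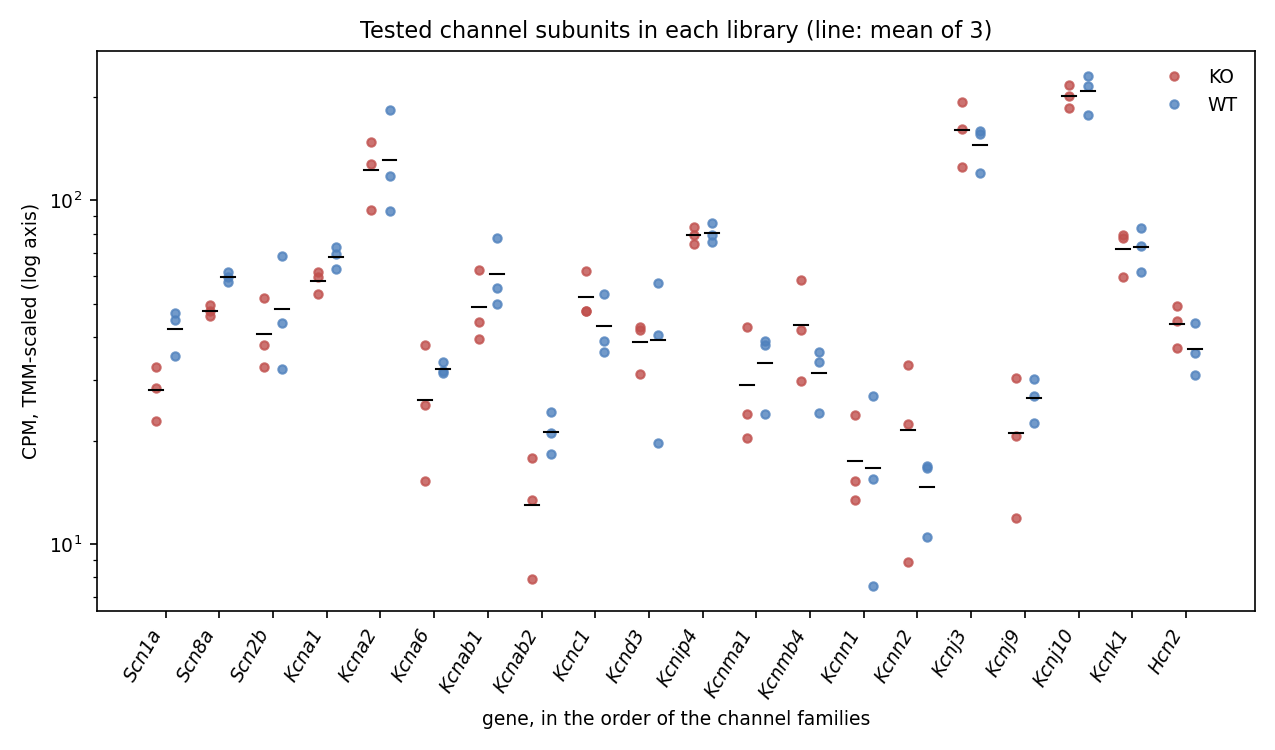
Level of each tested channel subunit in every library, in TMM-scaled CPM on a log axis, with KO libraries left of WT libraries and a line at the mean of 3. For Scn1a, Scn8a, Kcna1 and Kcnab2 the 3 KO points lie below the 3 WT points, and for the other 16 subunits the points overlap.

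The sodium channel alpha subunits form the pore through which the action potential rises. Scn1a had 18, 22 and 18 counts in KO replicates 1 to 3, against 30, 31 and 25 in WT replicates 1 to 3. Every KO library was below every WT library. Scn1a averaged 28.0 ± 4.97 CPM in KO and 42.3 ± 6.26 CPM in WT (SD, n = 3 each), a log2 change of -0.60 (SE 0.27, edgeR adjusted p 0.987). Scn8a encodes the alpha subunit best known for the resurgent sodium current of Purkinje cells. It had 39, 32 and 29 counts in KO, against 40, 41 and 41 in WT. The KO mean was 47.7 ± 1.81 CPM and the WT mean 59.9 ± 2.13 CPM (SD, n = 3 each), and the log2 change was -0.32 (SE 0.22, edgeR adjusted p 0.987). The groups did not overlap. The spread between libraries was small on both sides, but 3 libraries of 29 to 41 counts do not measure precision, and the edgeR unadjusted p was 0.16. Scn3a, an alpha subunit mostly of the developing brain, had 1 count in KO replicate 3 and 0 elsewhere.

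Part of the Scn1a sequence is identical in its relatives, which bears on how 50-base reads are assigned. Of the 50-base windows in Scn1a transcripts 4.03% also occur in a transcript of another gene, most often Scn2a, and for Scn3a the share is 6.49%. For Scn8a it is 0.0374%. The longest run that Scn1a shares with Scn3a is 143 bases of coding sequence, and with Scn2a 188 bases. A read lying wholly inside such a run matches both genes equally.

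The sodium channel beta subunits are single-span proteins that tune alpha subunit gating and placement. Scn4b, whose cytoplasmic tail is thought to carry the blocking peptide of the resurgent current, had 5, 3 and 4 counts in KO and 9, 8 and 7 in WT. These counts are few, and Scn4b lay below the filter of the test, but the libraries did not overlap, at 5.72 ± 1.08 CPM in KO and 11.8 ± 1.83 CPM in WT (SD, n = 3 each). Scn2b had 41, 22 and 24 counts in KO and 46, 29 and 23 in WT. The libraries of both groups overlapped, and the log2 change was -0.22 (SE 0.30). Scn3b had 9, 3 and 8 counts in KO and 10, 5 and 6 in WT. Scn2b and Scn4b lie next to each other on the plus strand of chromosome 9, at 45117782 to 45130070 and 45138395 to 45154152.

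The sum over the listed alpha subunits is in effect that of Scn1a and Scn8a, and so repeats their lack of overlap. It leaves out the alpha subunits Scn9a and Scn2a1, and so does not describe sodium channel alpha RNA as a whole. Scn9a averaged 365.4 ± 90.3 CPM in KO and 408.2 ± 48.8 CPM in WT (SD, n = 3 each). Scn2a1 averaged 44.2 ± 10.3 CPM in KO and 52.0 ± 15.7 CPM in WT (SD, n = 3 each). For both genes the libraries of KO and WT overlapped. The sum of Scn1a, Scn3a and Scn8a was 72.4, 80.5 and 76.0 CPM in KO replicates 1 to 3 and 104.9, 108.9 and 93.0 CPM in WT replicates 1 to 3. The means were 76.3 ± 4.03 CPM in KO and 102.2 ± 8.29 CPM in WT (SD, n = 3 each), and leaving out each library in turn the difference of KO minus WT ranged from -30.6 to -22.6 CPM. The ranges of the summed Purkinje cell and astrocyte markers given above also lay lower in KO, and their part in this difference was not tested. The beta family summed to 56.2 ± 14.1 CPM in KO and 70.5 ± 24.1 CPM in WT (SD, n = 3 each), a difference smaller than the SD of WT.

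**Figure D3:**
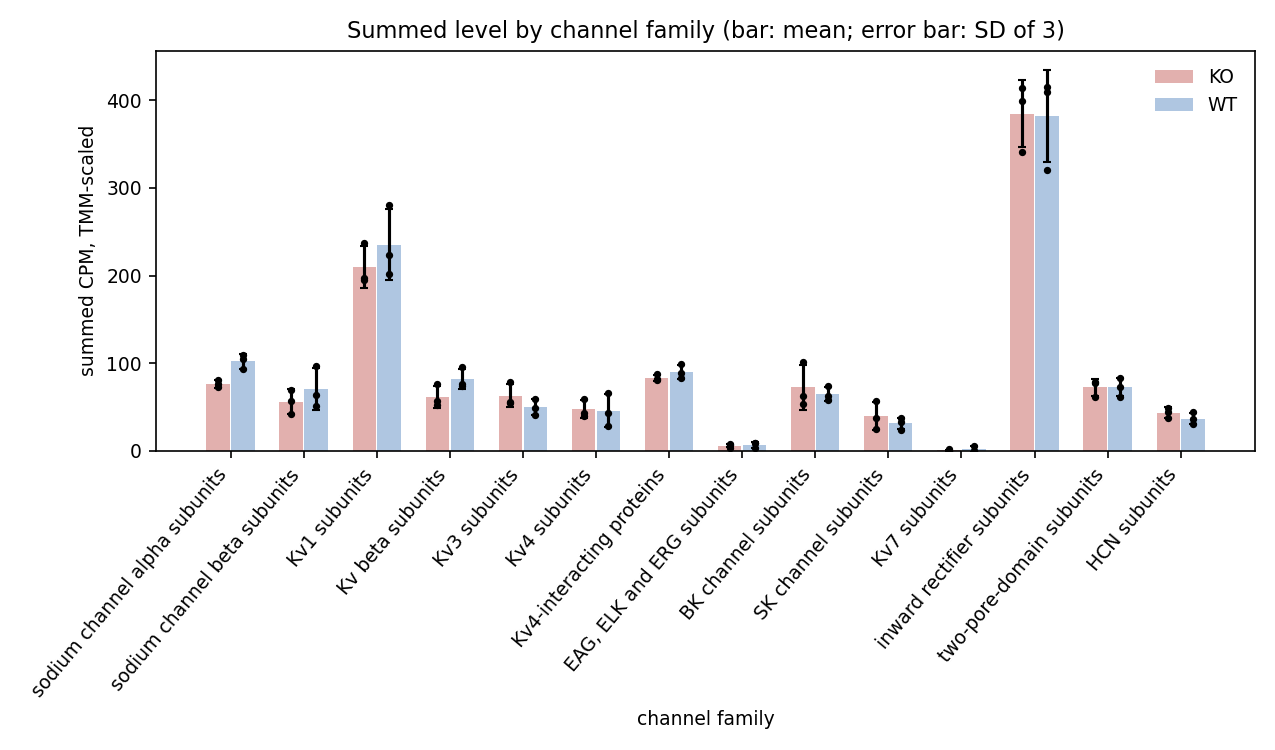
Summed CPM (y axis) of each channel family with a count (x axis) in KO and WT, with bars for the mean, error bars for the SD of 3 libraries and points for the libraries. The sodium channel alpha sum, in effect Scn1a and Scn8a and without Scn2a1 and Scn9a, has its 3 KO points below its 3 WT points. The inward rectifiers have the highest sums, 384.7 CPM in KO and 382.0 CPM in WT.

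Kv1 subunits form low-threshold potassium channels of axons and nerve terminals, among them the basket cell terminals around the Purkinje cell. Kcna1 had 42, 40 and 39 counts in KO replicates 1 to 3, against 42, 46 and 52 in WT replicates 1 to 3. Scaled to library size the groups did not overlap, with 58.2 ± 4.36 CPM in KO and 68.6 ± 5.22 CPM in WT (SD, n = 3 each). Its log2 change was -0.24 (SE 0.21, edgeR adjusted p 0.987). Kcna2, the usual partner of Kcna1 in these channels, had 100, 99 and 59 counts in KO and 122, 78 and 66 in WT. Replicate 3 was the lowest in both groups, the ranges overlapped, and the log2 change was -0.092 (SE 0.23). Kcna6 had 12, 17 and 24 counts in KO and 21, 21 and 24 in WT, and its log2 change was -0.34 (SE 0.32, edgeR adjusted p 0.987). Kcna4, which gives inactivating channels, had 0 to 2 counts in KO libraries and 1 to 3 in WT libraries, and Kcna5 had 1, 1 and 0 in KO and 0 in WT.

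The Kv1 genes carry closely related but distinct sequence around the pore, which is shown because it bears on whether their reads can be separated. The stretches below, of 60 bases each from GENCODE transcripts on GRCm38, are aligned on the codons of the potassium selectivity filter, and capitals mark bases that differ from Kcna1. They lie in coding exons, at chr6:126642207-126642266 (minus strand) for Kcna1, chr3:107105200-107105259 (plus) for Kcna2, chr2:107296471-107296530 (plus) for Kcna4, chr6:126533724-126533783 (minus) for Kcna5 and chr6:126738626-126738685 (minus) for Kcna6.
Kcna1: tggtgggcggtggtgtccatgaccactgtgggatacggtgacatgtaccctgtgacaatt
Kcna2: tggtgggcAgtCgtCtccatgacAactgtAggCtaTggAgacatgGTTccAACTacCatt
Kcna4: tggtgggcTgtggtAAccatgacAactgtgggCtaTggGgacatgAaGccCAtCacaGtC
Kcna5: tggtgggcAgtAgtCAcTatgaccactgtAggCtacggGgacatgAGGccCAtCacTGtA
Kcna6: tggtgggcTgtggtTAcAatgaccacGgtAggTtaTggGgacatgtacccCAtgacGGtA
Against Kcna1 there are 14 to 17 differing bases, and the longest identical run within the stretch is 8 to 11 bases. Over whole transcripts Kcna1 and Kcna4 share no 50-base window with another gene. Kcna5 and Kcna6, which lie with Kcna1 in a cluster on chromosome 6, share a coding run of 91 bases. Of their windows 2.81% (Kcna5) and 1.33% (Kcna6) occur in another gene.

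The Kv beta subunits are cytoplasmic proteins that bind Kv1 channels. Kcnab2 had 14, 9 and 5 counts in KO and 14, 16 and 13 in WT, and the libraries did not overlap once scaled to size. Its mean was 13.04 ± 4.94 CPM in KO and 21.2 ± 2.95 CPM in WT (SD, n = 3 each), with a log2 change of -0.66 (SE 0.38, edgeR adjusted p 0.987). Without KO replicate 3, its lowest library, the log2 fold change was -0.42. Kcnab1, whose product can confer fast inactivation, had 31, 42 and 28 counts in KO and 37, 33 and 55 in WT, which overlapped, and a log2 change of -0.33 (SE 0.26, edgeR adjusted p 0.987).

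Kv3 channels open at high voltage and close quickly, which lets Purkinje cells and interneurons fire at high rates. Kcnc1 had 49, 32 and 30 counts in KO and 26, 24 and 38 in WT. The mean was 52.5 ± 8.46 CPM in KO and 42.9 ± 9.27 CPM in WT (SD, n = 3 each), and the log2 change was 0.29 (SE 0.25, edgeR adjusted p 0.987). The ranges overlapped through WT replicate 3. Kcnc4 had 13, 4 and 5 counts in KO and 7, 3 and 4 in WT, and Kcnc2 had 1 count in KO replicate 2 alone. The Kv2 subunit Kcnb2 had 0 counts in all 6 libraries.

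Kv4 subunits carry the transient A-type current of dendrites and need auxiliary proteins, among them the calcium-binding proteins encoded by Kcnip genes. Kcnd3 had 33, 21 and 27 counts in KO and 27, 38 and 14 in WT, with the WT libraries on both sides of the KO libraries, and a log2 change of -0.0087 (SE 0.32). Kcnd2, abundant in granule cells, had 13, 6 and 0 counts in KO and 2, 5 and 6 in WT, and Kcnd1 had at most 1 count. Kcnip4 had 66, 53 and 47 counts in KO and 53, 50 and 61 in WT, a mean of 79.1 ± 4.71 CPM in KO and 80.3 ± 5.21 CPM in WT (SD, n = 3 each). Its log2 fold change was -0.021, with a 95% interval from -0.43 to 0.39. Kcnip1 had 3, 2 and 4 counts in KO and 6, 5 and 9 in WT. It lay below the filter, and its libraries did not overlap, at 4.37 ± 1.75 CPM in KO and 9.74 ± 2.64 CPM in WT (SD, n = 3 each).

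BK and SK channels are opened by intracellular calcium and shape the afterhyperpolarisation of Purkinje cells. Kcnma1, the BK pore, had 16, 16 and 27 counts in KO and 26, 25 and 17 in WT, so that replicate 3 was the highest KO library and the lowest WT library, and its log2 change was -0.23 (SE 0.33). Kcnmb4, the neuronal BK beta subunit, had 33, 20 and 37 counts in KO and 16, 24 and 24 in WT. The mean was 43.4 ± 14.5 CPM in KO and 31.4 ± 6.51 CPM in WT (SD, n = 3 each), and the log2 change was 0.46 (SE 0.30, edgeR adjusted p 0.987). Kcnn2, the SK subunit best known in Purkinje cells, had 7, 15 and 21 counts in KO and 7, 11 and 12 in WT. Its log2 fold change was 0.50, with a 95% interval from -0.43 to 1.43 and an edgeR adjusted p of 0.987, and it was 0.047 without KO replicate 3. Kcnn1 had 12, 9 and 15 counts in KO and 18, 5 and 11 in WT, with a log2 change of 0.052 (SE 0.43), and Kcnn3 had 1, 1 and 0 in KO and 0 in WT.

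The Kv7 and EAG-type subunits were barely read. Kcnq3 and Kcnq5, of the M-type potassium current, had together 1 count in KO libraries and 4 in WT libraries, all in replicate 3. Kcnh1 and Kcnh3 had at most 2 counts in any library. Kcnh7, of the ERG type, had 2, 4 and 4 counts in KO and 4, 1 and 6 in WT. No difference could be seen at this depth in these genes.

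Inward rectifiers hold the membrane near the potassium potential, in neurons as targets of G protein signalling and in glia as a route for potassium uptake. Kcnj10, the main inward rectifier of astrocytes and Bergmann glia, had 170, 135 and 117 counts in KO and 153, 142 and 126 in WT. The libraries overlapped at 200.8 ± 15.3 CPM in KO and 207.2 ± 26.7 CPM in WT (SD, n = 3 each), with a log2 fold change of -0.042, the smallest standard error of the tested subunits (0.16) and a 95% interval from -0.37 to 0.29. Kcnj3, a G protein-gated subunit, had 127, 84 and 122 counts in KO and 104, 105 and 85 in WT, and a log2 change of 0.14 (SE 0.19, edgeR adjusted p 0.997). Kcnj9, another G protein-gated subunit, had 24, 8 and 13 counts in KO and 18, 20 and 16 in WT, and a log2 change of -0.31 (SE 0.35, edgeR adjusted p 0.997). Kcnj6, also of this kind, had 5, 2 and 0 counts in KO and 2, 4 and 1 in WT. Kcnj9 and Kcnj10 are neighbours on chromosome 1, at 172320501 to 172329318 on the minus strand and 172341210 to 172374085 on the plus strand. Summed over the family, the level was 384.7 ± 38.5 CPM in KO and 382.0 ± 52.8 CPM in WT (SD, n = 3 each).

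Tandem-pore channels give the background potassium leak, and HCN channels the inward current that opens on hyperpolarisation. Kcnk1 had 61, 40 and 50 counts in KO and 49, 55 and 44 in WT, and its log2 fold change was -0.012 with a 95% interval from -0.47 to 0.44. Kcnk9, known from granule cells, had 1 count in KO replicate 2 alone. Hcn2 had 35, 25 and 31 counts in KO and 24, 29 and 22 in WT, with a mean of 43.6 ± 5.96 CPM in KO and 36.9 ± 6.49 CPM in WT (SD, n = 3 each). Its libraries overlapped, and the log2 change was 0.24 (SE 0.26, edgeR adjusted p 0.995).

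Levels are set side by side between subunits as CPM divided by the length of merged exons, with the limit that strand is unknown. Kcnj10, Kcnk1, Kcnj3 and Kcnip4 had the highest values in both genotypes, and of these Kcnk1, Kcnj3 and Kcnip4 share 179, 1621 and 267 exonic bases with opposite-strand genes. Kcnj10 was at 37.1 ± 2.84 CPM per kilobase in KO and 38.3 ± 4.94 in WT, Kcnk1 at 32.2 ± 4.85 in KO and 32.6 ± 4.75 in WT, and Kcnj3 at 30.7 ± 6.52 in KO and 27.8 ± 4.17 in WT (SD, n = 3 each). These neighbours in the order did not differ beyond their spread. Kcnip4 followed at 21.8 ± 1.30 CPM per kilobase in KO and 22.1 ± 1.44 in WT, but at 33.0 in KO and 33.5 in WT per kilobase of its longest transcript. Kcnmb4 was at 13.1 ± 4.35 in KO and 9.43 ± 1.96 in WT, and at 26.7 in KO and 19.3 in WT per kilobase of its longest transcript. Kcna1 at 12.2 ± 0.913 in KO and 14.3 ± 1.09 in WT, Hcn2 at 13.6 ± 1.87 in KO and 11.6 ± 2.03 in WT, and Kcna2 at 10.3 ± 2.29 in KO and 11.0 ± 3.90 in WT again lay within each other's spread in at least 1 genotype. The alpha subunits of sodium channels, long transcripts, were lower per length, at 2.52 ± 0.446 in KO and 3.80 ± 0.561 in WT for Scn1a and 3.03 ± 0.115 in KO and 3.80 ± 0.135 in WT for Scn8a.

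**Figure D4:**
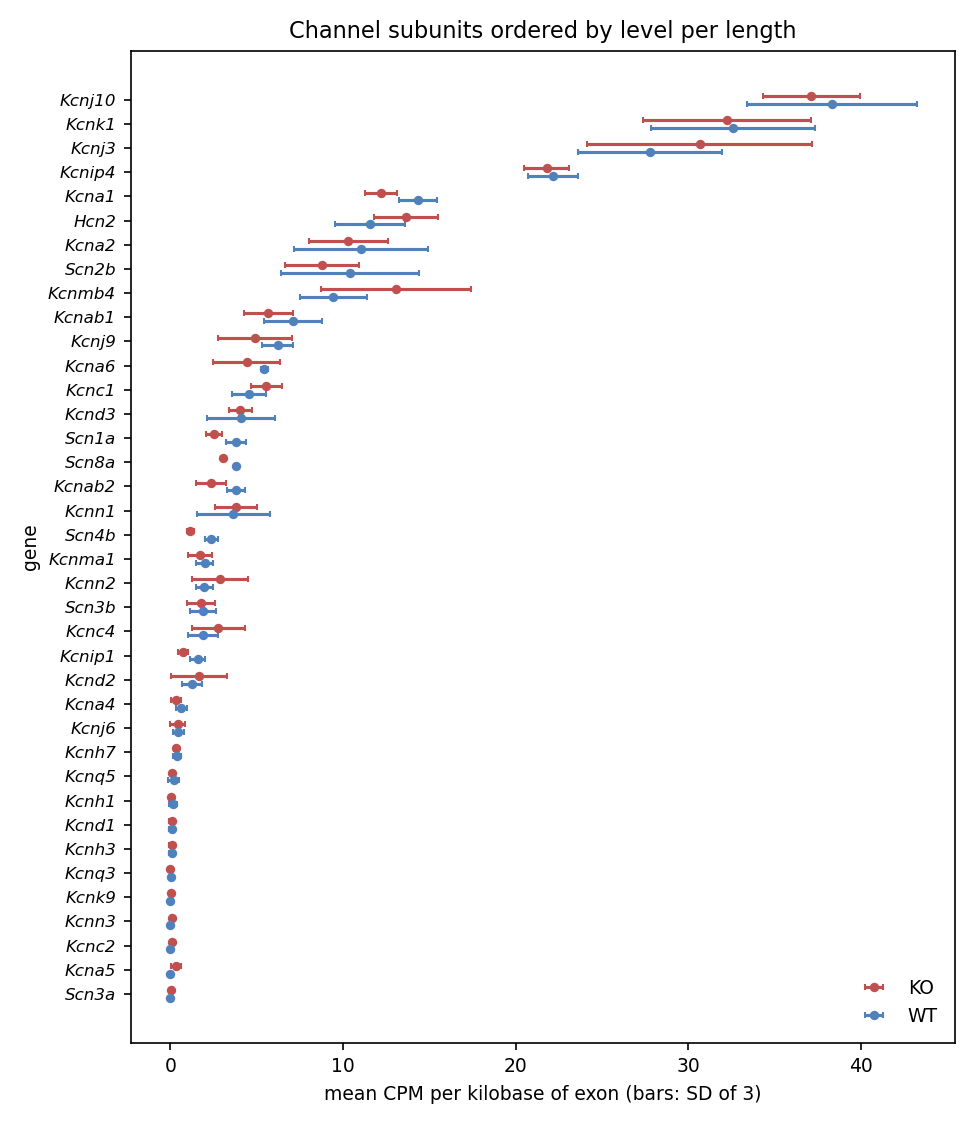
Mean CPM per kilobase of merged exon (x axis) of the 38 channel subunits with a count in any library (y axis, ordered by the WT mean), KO above WT in each row, with bars for the SD of 3. Kcnj10, Kcnk1 and Kcnj3 lead, from 27.8 to 38.3, and the lowest subunits are near 0. The bars of Kcnk1 overlap those of Kcnj10 and of Kcnj3, but the WT bars of Kcnj10 and Kcnj3 do not overlap.

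Several subunits overlap an opposite-strand gene that held far more counts. In GENCODE annotation 14 of the 39 subunits, 11 of them tested, share at least 50 exonic bases with an opposite-strand gene. For 7 subunits such a gene is in the count files, in 8 pairs, and in 6 of the 8 pairs the opposite-strand gene held more counts than the subunit. Kcnmb4os1 lies opposite Kcnmb4 over 355 exonic bases and had 1222, 1231 and 1209 counts in KO and 909, 1075 and 1284 in WT. Its total over the 6 libraries was 6930 counts, against 154 for Kcnmb4. Kcnmb4os2, which shares 693 bases with Kcnmb4, had 833, 830 and 827 counts in KO and 552, 887 and 901 in WT. Both opposite-strand genes overlapped between genotypes, with log2 fold changes of 0.14 (SE 0.14) and 0.067 (SE 0.16).

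The same pattern held for other pairs. A330093E20Rik, opposite Kcnn2 over 284 bases on chromosome 18, had 729, 637 and 635 counts in KO and 554, 592 and 554 in WT, a total 50.7 times that of Kcnn2. Its libraries did not overlap, at 960 ± 40.9 CPM in KO and 835 ± 57.7 CPM in WT (SD, n = 3 each), and its log2 change was 0.20 (SE 0.12, edgeR adjusted p 0.987). 5730480H06Rik held 9.45 times the counts of Kcnip4, Gca 19.6 times those of Kcnh7 and Kcnd3os 1.99 times those of Kcnd3. The opposite order was found for A330015K06Rik, with 0.0752 times the counts of Kcnab1, and 4930519K11Rik, with 0.346 times those of Kcnma1. With the strand of counting unknown, the RNA of a subunit and of its opposite-strand partner cannot be told apart in these pairs. Scn1a, Scn8a, Kcna1 and Kcnab2, the tested subunits without overlap between genotypes, share no exonic base with an annotated opposite-strand gene. They are among 9 of the 20 tested subunits in the set of genes with no opposite-strand exon. Which strand was counted was not tested, so their values carry the strand limit as well.

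**Figure D5:**
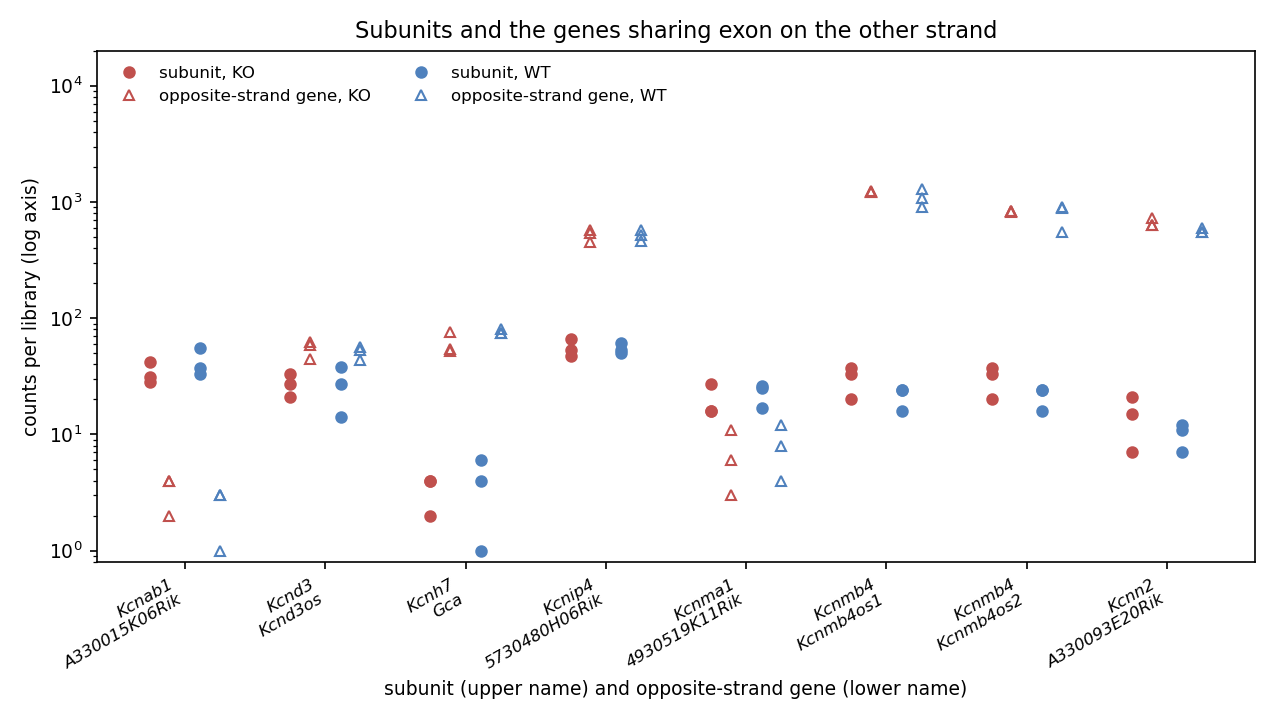
Counts per library (log axis) of 7 channel subunits (filled circles) and of the genes sharing at least 50 exonic bases with them on the other strand (open triangles), KO left of WT. The triangles lie above the circles for Kcnd3, Kcnh7, Kcnip4, Kcnmb4 (both partners) and Kcnn2, and below them for Kcnab1 and Kcnma1.

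The wider list of sodium, potassium and HCN channel genes outside the 39 gave no call either. Of its 75 symbols 14 were tested, 0 passed, 9 had a log2 fold change below 0 and 5 above, and the median was -0.090. Kcng4, a modifier subunit of Kv2 channels, lay at -0.57 (SE 0.32, edgeR adjusted p 0.987). The lowest p-values above 0 belonged to Kcnab3 at 0.26 (SE 0.37) and Kcns2 at 0.057 (SE 0.30). Scn9a, known mainly from peripheral sensory neurons, had 206, 286 and 258 counts in KO and 310, 252 and 269 in WT. That was the highest count of the list, and 180 of its exonic bases overlap an opposite-strand gene. It was singled out after its values were seen.

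Proteins that anchor or modify these channels gave 0 calls among 22 tested of 29, with 14 below 0, 8 above and a median of -0.089. Nrcam, an adhesion molecule of the axon initial segment and node where sodium channels cluster, averaged 23.0 ± 5.89 CPM in KO and 41.5 ± 10.4 CPM in WT (SD, n = 3 each), a log2 change of -0.84 (SE 0.30, edgeR adjusted p 0.987). Dlg2, a scaffold that binds Kv1 channels, lay at -0.57 (SE 0.28) with no overlap between the genotypes. On the higher side were Fgf14, an intracellular sodium channel partner, at 0.34 (SE 0.32), and Unc79, of the sodium leak channel complex, at 0.32 (SE 0.40).

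The authors' own comparisons of the same libraries called no subunit either. Of the 38 subunits given a p-value, 0 were under 0.05 in the authors' deposited DESeq table, where 1.86% of its genes were. Of 39 subunits 0 were under 0.05 in the authors' deposited edgeR table, where 1.9% of its genes were. For Scn1a the KO over WT ratio in the authors' deposited DESeq table was 0.679 (p = 0.0755). The log2 value in the authors' deposited edgeR table, which runs as WT over KO, was 0.578 (p = 0.0542) for Scn1a. That column of the authors' deposited edgeR table held 0.995 (p = 0.0659) for Scn4b and 1.14 (p = 0.0685) for Kcnip1.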

How the data were processed

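The 6 libraries came from microdissected cerebellar tissue. Per the labels' protocols, RNA was extracted with TRIzol, prepared with a TruSeq mRNA kit and read from 1 end over 50 bases. The submitters' processing notes name GRCm38 (mm10), edgeR, DESeq, HTSeq 0.9.1 and TopHat. Neither the strand setting nor the annotation is given there. The authors deposited whole-number counts per gene symbol with 5 further rows that name no gene, which entered neither library sizes nor tests. The row for reads in no gene held 98.8% of uniquely aligned reads. The authors' DESeq table, per the file headers, holds a normalised mean signal, a ratio and a p-value, and the authors' edgeR table log2 CPM, a p-value and a log2 ratio with WT on top. Both tables were used for description alone.

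KO was tested against WT with the quasi-likelihood functions glmQLFit and glmQLFTest of edgeR 4.0.16 under R 4.3.3 (TMM factors, filterByExpr with a minimum count of 10, all 6 libraries, no covariate, Benjamini-Hochberg over 5320 genes). Standard errors come from the F statistic, and CPM uses TMM-scaled sizes. Alternatives used DESeq2 1.42.0 and limma 3.58.1 (voom), other normalisations, filters and library sets. The test was also run on simulated counts. GENCODE M21 (GRCm38) matched 95.7% of symbols. The subunits and lists were chosen with earlier results of these data known. Full statistics were given for the 12 tested subunits of lowest p, those without overlap and the highest per length in each family. Of other lists the 2 of lowest p in each direction are named. Scn9a, Scn2a1 and the opposite-strand genes are additions. Some genes that the rule names, and a sequence, are not reported here. The titles number 3 replicates per genotype, and the series text calls them biological.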

Additional observations from a re-analysis of the deposited data

Results flagged for a closer look

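The gene counts behind the channel values are a small share of the sequencing. The deposited row for reads that fell in no gene held on average 98.8% of the uniquely aligned reads in KO and 98.8% in WT. Only that total is deposited, so what these reads are was not tested. Groups of 3 libraries are too small to flag a single library for any channel subunit.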

How the results depend on the processing

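In the 16 alternative settings 0 subunits passed the adjusted test. The count of all genes called, 0 in the main test, was 6 with no filter on low counts, 1 (Erdr1, named after its values were seen) without the libraries with Y-linked counts. With single libraries left out it ranged from 0 to 1 (Erdr1, without WT replicate 3). The cause was not tested. The median of the tested subunits was -0.215 without the libraries with Y-linked counts, and leaving out each library it ranged from -0.173 to 0.000192. Among 309 values of single subunits under alternatives 28 had the other sign, in 8 subunits, and 12 subunits kept 1 sign, 8 lower and 4 higher in KO. Some that kept it moved widely when single libraries were left out, with ranges of -0.694 to -0.0393 for Kcna6, -0.711 to -0.0404 for Kcnj9, -0.605 to -0.0164 for Kcnma1, -0.557 to -0.124 for Kcnab1, 0.198 to 0.655 for Kcnmb4 and 0.047 to 0.902 for Kcnn2. Leaving out each library, the log2 fold change ranged from -0.455 to 0.113 for Scn2b, -0.297 to 0.216 for Kcna2, -0.344 to 0.375 for Kcnd3, -0.069 to 0.0245 for Kcnip4, -0.282 to 0.558 for Kcnn1, -0.0136 to 0.282 for Kcnj3, -0.15 to 0.0303 for Kcnj10 and -0.124 to 0.0987 for Kcnk1. The sign also differed for Kcnd3 with RLE (0.000711), no filter (0.0127), DESeq2 (0.0162), limma-voom (0.107) and the replicate block (0.0172), for Kcnk1 with no filter (0.00934) and DESeq2 (0.0172), for Kcnip4 with DESeq2 (0.00877), for Kcnj10 among genes with no opposite-strand exon (0.0292), and without the libraries with Y-linked counts for Kcnip4 (0.0652), Kcnn1 (-0.27) and Kcnj3 (-0.138). Of 105 alternative values of the family sums 0 moved by more than the spread between libraries. For the values with a library left out this was fixed in advance, since leaving out 1 of 3 libraries cannot shift a mean that far. Some differences of KO minus WT did change widely. The BK family went from 7.47 to -6.99 CPM without KO replicate 3. The inward rectifiers went from 2.72 to -27.7 CPM without WT replicate 3, and the Kv1 family from -25.7 to -3.11 CPM without WT replicate 1. With the longest transcript as length, 4 of the 5 highest subunits per length were the same.

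The replicate block called 0 genes and 0 subunits, with 287 genes and 1 subunit at an unadjusted p under 0.05. Deviations of equally numbered libraries correlated across genes at 0.143, 0.0795 and 0.122, and each KO library correlated best with the WT library of its own number. The labels name no pairing, so the numbers were not taken as pairs. Depth limits the 19 untested subunits, for which only large differences could have been seen.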

Other observations

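Some genes of the sodium and potassium pump, which restores the gradients that these channels run down, are given here as values. Atp1b3, a beta subunit, had 23, 13 and 16 counts in KO replicates 1 to 3 and 31, 21 and 28 in WT replicates 1 to 3. Every KO library was below every WT library in CPM, at 24.6 ± 4.96 in KO and 39.2 ± 7.35 in WT (SD, n = 3 each), and the log2 change was -0.66 (SE 0.29, edgeR adjusted p 0.987). Atp1b1, another beta subunit, had 300, 246 and 198 counts in KO and 309, 314 and 266 in WT, with a log2 change of -0.30 (SE 0.14, edgeR adjusted p 0.987). Neither passed the adjusted test. The summed Purkinje cell markers were 3149 to 4125 CPM in KO and 4093 to 4777 CPM in WT, and their part in these values was not tested.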
